A study of Mus musculus with 30 samples.

Results

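The complement components C1qa, C1qb, C1qc, C3 and C4b and the receptor genes C3ar1, C5ar1, Itgam and Itgb2 were followed through RNA-seq libraries of mouse spinal cord microglia. These 9 genes were taken by symbol from the deposited expression table of 24888 rows, in which each had 1 row. All 30 libraries came from C57BL/6J mice perfused with cold PBS, whose caudal lumbar cord was dissociated, depleted of myelin and selected for CD11b on magnetic columns. CD11b is the protein that Itgam encodes, so the cells were chosen for the product of 1 of the genes described. The libraries were made with Smart-Seq2, which copies whole transcripts, and fell into 12 groups. The 9 controls were 2 naive libraries (no injury and no injection), 4 from mice given saline on the fixed regimen and 3 from mice given saline on the escalating regimen. The 14 injury libraries, 2 per group, came after the sciatic nerve was cut (SNT, taken on day 1, 2, 4 or 7 post injury, dpi), after chronic constriction injury (CCI, 2 or 7 dpi) and after spared nerve injury (SNI, 7 dpi). Morphine was given on the fixed regimen in 4 libraries and on the escalating regimen in 3. The labels give no dose, age or sex, do not name a sham operation among the controls and do not state that each library is a separate animal, so p-values measure the spread between these libraries only.

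Complement is a cascade of plasma and tissue proteins that tags material for removal. C1q, built from the chains that C1qa, C1qb and C1qc encode, binds a target and starts the classical pathway, which cuts C4 and then C3, and the fragments of C3 stay on the target or diffuse as signals. Microglia are the main source of C1q in the brain and spinal cord, and they read the fragments with C3ar1 (receptor of C3a), C5ar1 (receptor of C5a) and the integrin CR3, a pair of the Itgam and Itgb2 chains that binds cleaved C3 and takes part in phagocytosis and in the removal of synapses.

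The microglial identity of the cells was read from 10 markers, all present in every group, which summed to 6097 to 13457 FPKM per library (fragments per kilobase of a transcript, relative to all fragments mapped in that library). The depth is unknown, because the values are not counts, and between 8005 and 10427 genes per library reached 1 FPKM. SNT 1 dpi replicate 1, SNT 7 dpi replicate 1 and SNT 2 dpi replicate 2 had the fewest such genes, 8005, 8466 and 8763. Markers of neutrophils, which also carry CD11b, summed to 1845 to 63215 FPKM (12 of the 13 listed are in the table), and those of monocytes to 11.2 to 2693 FPKM, so transcripts typical of other CD11b-carrying cells were present. The libraries also separated by a feature that the labels do not name. Cst3, which encodes the abundant microglial protein cystatin C, was at 10120 to 20827 FPKM in 14 libraries and at 39503 to 95123 FPKM in the other 16. The 14 low-Cst3 libraries were both naive, all CCI, all SNI and all fixed-morphine libraries, SNT 7 dpi replicate 2 and escalating-morphine replicate 1. The 16 high-Cst3 libraries were all 7 saline libraries, all SNT libraries of 1, 2 and 4 dpi, SNT 7 dpi replicate 1 and escalating-morphine replicates 2 and 3. Of 11759 genes tested, 522 (4.44%) had values that did not overlap between the sets, and 2 of the 9 complement genes were among them, C1qa and C4b. The sets were drawn after seeing the data, and the results below are given with all libraries and, where groups allow, within a set.

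The C1q genes lie side by side on chromosome 4 (GRCm38.p6), C1qb at chr4:136880126-136886200, C1qc at chr4:136889801-136892936 and C1qa at chr4:136895916-136898844, in a span of 18.7 kb. C1qb and C1qc moved together in the data, and their RefSeq promoter windows, 300 bases around the transcript start, are shown for that reason. Promoter windows were found for 6 of the 9 genes (C1qb, C1qc, C3, C3ar1, C5ar1 and Itgam), but not for C1qa, C4b and Itgb2. Both windows are on the minus strand, C1qb at chr4:136886151-136886450 and C1qc at chr4:136892865-136893164, and capitals mark GAGGAA or its reverse complement TTCCTC, the core of the sites bound by PU.1, a transcription factor of macrophages and microglia.
C1qb: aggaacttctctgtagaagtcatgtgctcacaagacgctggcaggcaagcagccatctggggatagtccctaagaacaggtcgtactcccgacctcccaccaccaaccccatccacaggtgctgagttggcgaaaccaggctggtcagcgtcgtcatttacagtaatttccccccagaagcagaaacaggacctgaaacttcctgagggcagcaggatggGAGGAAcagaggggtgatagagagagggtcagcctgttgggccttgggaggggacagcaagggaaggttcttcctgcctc
C1qc: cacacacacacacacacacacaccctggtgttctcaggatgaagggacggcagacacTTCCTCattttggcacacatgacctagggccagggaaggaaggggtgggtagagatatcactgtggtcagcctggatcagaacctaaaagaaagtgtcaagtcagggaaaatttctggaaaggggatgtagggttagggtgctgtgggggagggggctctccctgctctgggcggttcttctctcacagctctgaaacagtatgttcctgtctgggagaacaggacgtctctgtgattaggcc
On either strand these letters occurred once in C1qb, once in C1qc and 3 times in Itgam, and were not found in the windows of C3, C3ar1 and C5ar1. They were found in 28.3% of all 32851 promoter windows of this length, so 3 of 6 is a description of these windows and not a sign of binding.

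The C1q genes were among the most abundant transcripts of the cells. Averaged over the 30 libraries, C1qb stood at 5744 FPKM, which is rank 4 among the 24062 genes with a unique symbol, C1qc at 3633 FPKM (rank 9) and C1qa at 2508 FPKM (rank 13). FPKM is a level per transcript length, but the tool and annotation behind it are not given, so the order of genes is one of listed values. In these values C1qb exceeded C1qc in 30 of 30 libraries and C1qc exceeded C1qa in 29 of 30. C1qb ran from 4589 FPKM in fixed-morphine replicate 4 to 8415 FPKM in SNT 1 dpi replicate 1, and C1qc from 2880 to 5141 FPKM in the same libraries. The highest level of each was therefore less than 2 times its lowest.

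Although the subunits are encoded side by side, their levels did not keep the same proportions. The ratio of C1qc to C1qb stayed between 0.525 and 0.699 in all 30 libraries (mean 0.633 ± 0.038, SD). The ratio of C1qa to C1qb was 0.253 to 0.321 in the 14 low-Cst3 libraries and 0.403 to 0.668 in the 16 high-Cst3 libraries, with no value between. Among groups that lie within 1 set it was 0.282 ± 0.004 in naive (SD, n = 2), 0.272 ± 0.013 in fixed morphine (n = 4) and 0.298 ± 0.018 over the CCI and SNI libraries (n = 6), against 0.626 ± 0.029 in fixed saline (n = 4) and 0.477 ± 0.028 in escalating saline (n = 3). In the early transection groups it was 0.534 and 0.629 on day 1, 0.593 and 0.551 on day 2 and 0.450 and 0.553 on day 4. Where a group had libraries of both sets, the ratio differed within the group. It was 0.403 and 0.275 in SNT 7 dpi replicates 1 and 2, and 0.282, 0.598 and 0.570 in escalating-morphine replicates 1, 2 and 3.

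**Figure D1:**
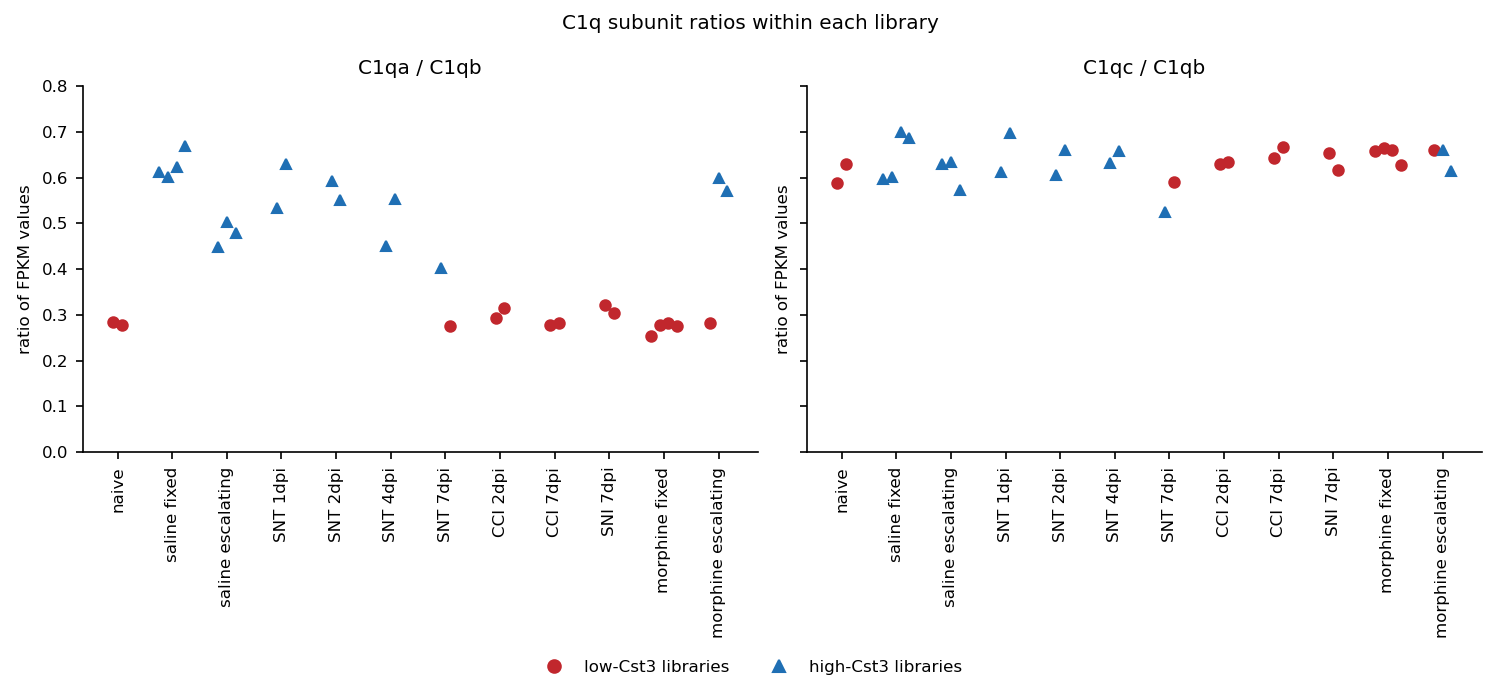
Ratio of C1qa to C1qb (left) and of C1qc to C1qb (right), from FPKM values, in each of the 30 libraries by group; red circles are the 14 low-Cst3 libraries and blue triangles the 16 high-Cst3 libraries. The C1qa to C1qb ratio lies at 0.253 to 0.321 in the first and at 0.403 to 0.668 in the second, whereas the C1qc to C1qb ratio spans 0.525 to 0.699 with the sets mixed.

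C1qa itself showed the same division. It measured 1523 and 1449 FPKM in the naive libraries, 3304, 3535, 4249 and 4744 FPKM in fixed saline and 2080, 2485 and 2429 FPKM in escalating saline. The transection libraries had 4489 and 4265 FPKM on day 1, 3260 and 3288 FPKM on day 2, 2655 and 2784 FPKM on day 4, and 3263 and 1749 FPKM on day 7. Replicates of the first 3 days lay close together, while those of 7 dpi, of which 1 is in each set, were far apart. CCI gave 1763 and 1496 FPKM on day 2 and 1315 and 1610 FPKM on day 7, and SNI gave 1593 and 1846 FPKM. Under morphine it measured 1450, 1320, 1444 and 1264 FPKM on the fixed regimen and 1473, 3796 and 3336 FPKM on the escalating regimen. Ordered by group mean, SNT 1 dpi (4377 ± 159 FPKM, SD, n = 2), fixed saline (3958 ± 661, n = 4) and SNT 2 dpi (3274 ± 20.0, n = 2) came first, and CCI 7 dpi (1462 ± 209, n = 2) and fixed morphine (1370 ± 92.3, n = 4) last. In that order of the 12 groups, neighbours differed by less than the larger of their SDs except at 2 places, between fixed saline and SNT 2 dpi and between escalating saline (2331 ± 220, n = 3) and SNI 7 dpi (1719 ± 178, n = 2). The genes whose log2 levels were most like C1qa over the 30 libraries were Trem2 (Pearson r = 0.93, Spearman rho = 0.89), Map1lc3a (0.93 and 0.90), Cst3 (0.92 and 0.87), Rabac1 (0.92 and 0.88) and Sod1 (0.92 and 0.85), correlations that rest largely on points from 2 separate sets of libraries and are given as a description.

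C4b, which encodes the complement component C4 and lies at chr17:34728139-34743902, was low or listed at 0 in the high-Cst3 libraries and present in all low-Cst3 libraries. In the 16 high-Cst3 libraries it ran from 0 to 6.98 FPKM with a median of 0.487, and 3 of them, SNT 4 dpi replicate 1, SNT 7 dpi replicate 1 and escalating-saline replicate 7, listed it at 0. In the 14 low-Cst3 libraries it ran from 9.17 to 83.4 FPKM with a median of 18.2. The naive libraries held 19.1 and 13.5 FPKM, whereas fixed saline held 0.533, 0.386, 0.260 and 2.09 FPKM and escalating saline 0, 1.88 and 2.93 FPKM. Transection libraries of 1, 2 and 4 dpi held at most 0.613 FPKM, and at 7 dpi the replicates held 0 and 21.7 FPKM. CCI held 14.7 and 9.17 FPKM on day 2 and 11.2 and 21.9 FPKM on day 7, and SNI held 17.4 and 31.7 FPKM. Fixed morphine held 42.0, 13.3, 13.96 and 83.4 FPKM, and escalating morphine 53.6, 6.98 and 4.57 FPKM. By group mean, fixed morphine was highest (38.2 ± 33.0 FPKM, SD, n = 4), followed by SNI (24.5 ± 10.1, n = 2) and escalating morphine (21.7 ± 27.6, n = 3), and groups next to each other in this order differed by less than the larger of their SDs, except naive (16.3 ± 3.94, n = 2) and CCI 2 dpi (11.9 ± 3.92, n = 2). Of the 50-base stretches of the longest C4b transcript, 35.2% also occur in transcripts of other genes, most often its near-copy C4a (chr17:34809092-34823460), so the division of reads between these genes is uncertain. C4a was low in every library, at 0.706 to 6.29 FPKM in the low-Cst3 set and 0 to 0.716 FPKM in the high-Cst3 set.

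C3, the protein at which the complement pathways meet (chr17:57203967-57228136), was a low transcript at a mean of 14.2 FPKM, and was higher than C4b in 5 of the 14 low-Cst3 and 14 of the 16 high-Cst3 libraries. The controls held 8.09 and 15.5 FPKM in naive, 35.6, 9.39, 8.26 and 20.8 FPKM in fixed saline and 3.85, 11.8 and 14.6 FPKM in escalating saline. After transection C3 was listed at 0 and 3.84 FPKM on day 1, 6.82 and 1.51 FPKM on day 2, 5.08 and 3.11 FPKM on day 4 and 2.41 and 11.7 FPKM on day 7. Both libraries of 1 dpi were below the lowest control, replicate 2 only barely (3.84 against 3.85 FPKM), and 1 library each of 2, 4 and 7 dpi was as well. CCI and SNI libraries held 8.50 to 28.1 FPKM, inside the control range. Among the morphine libraries 2 stood high, fixed-morphine replicate 4 at 62.4 FPKM and escalating-morphine replicate 1 at 59.8 FPKM, while the other fixed-morphine libraries held 8.51, 15.7 and 8.71 FPKM and the other escalating-morphine libraries 4.92 and 5.86 FPKM. Those 2 libraries rank 6 and 9 of 30 in summed neutrophil markers. The library that ranks first, escalating-saline replicate 9 with 63215 FPKM of those markers, held 14.6 FPKM of C3, rank 10. Libraries at ranks 2 to 5 held 8.26, 20.8, 1.51 and 2.41 FPKM of C3, and those at ranks 7 and 8 held 11.8 and 35.6 FPKM. The part of neutrophils in the C3 values was not tested. In the order of C3 the transection groups of 1, 2 and 4 dpi were lowest, but neighbouring groups differed by less than the larger of their SDs throughout. The 5 genes most like C3 over the 30 libraries were Vcl (Pearson r = 0.96, Spearman rho = 0.91), Sema4a (0.96 and 0.96), 6430548M08Rik (0.96 and 0.93), Iqgap1 (0.94 and 0.93) and Xdh (0.94 and 0.93), given as a description over libraries that differ in the number of detected genes.

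**Figure D2:**
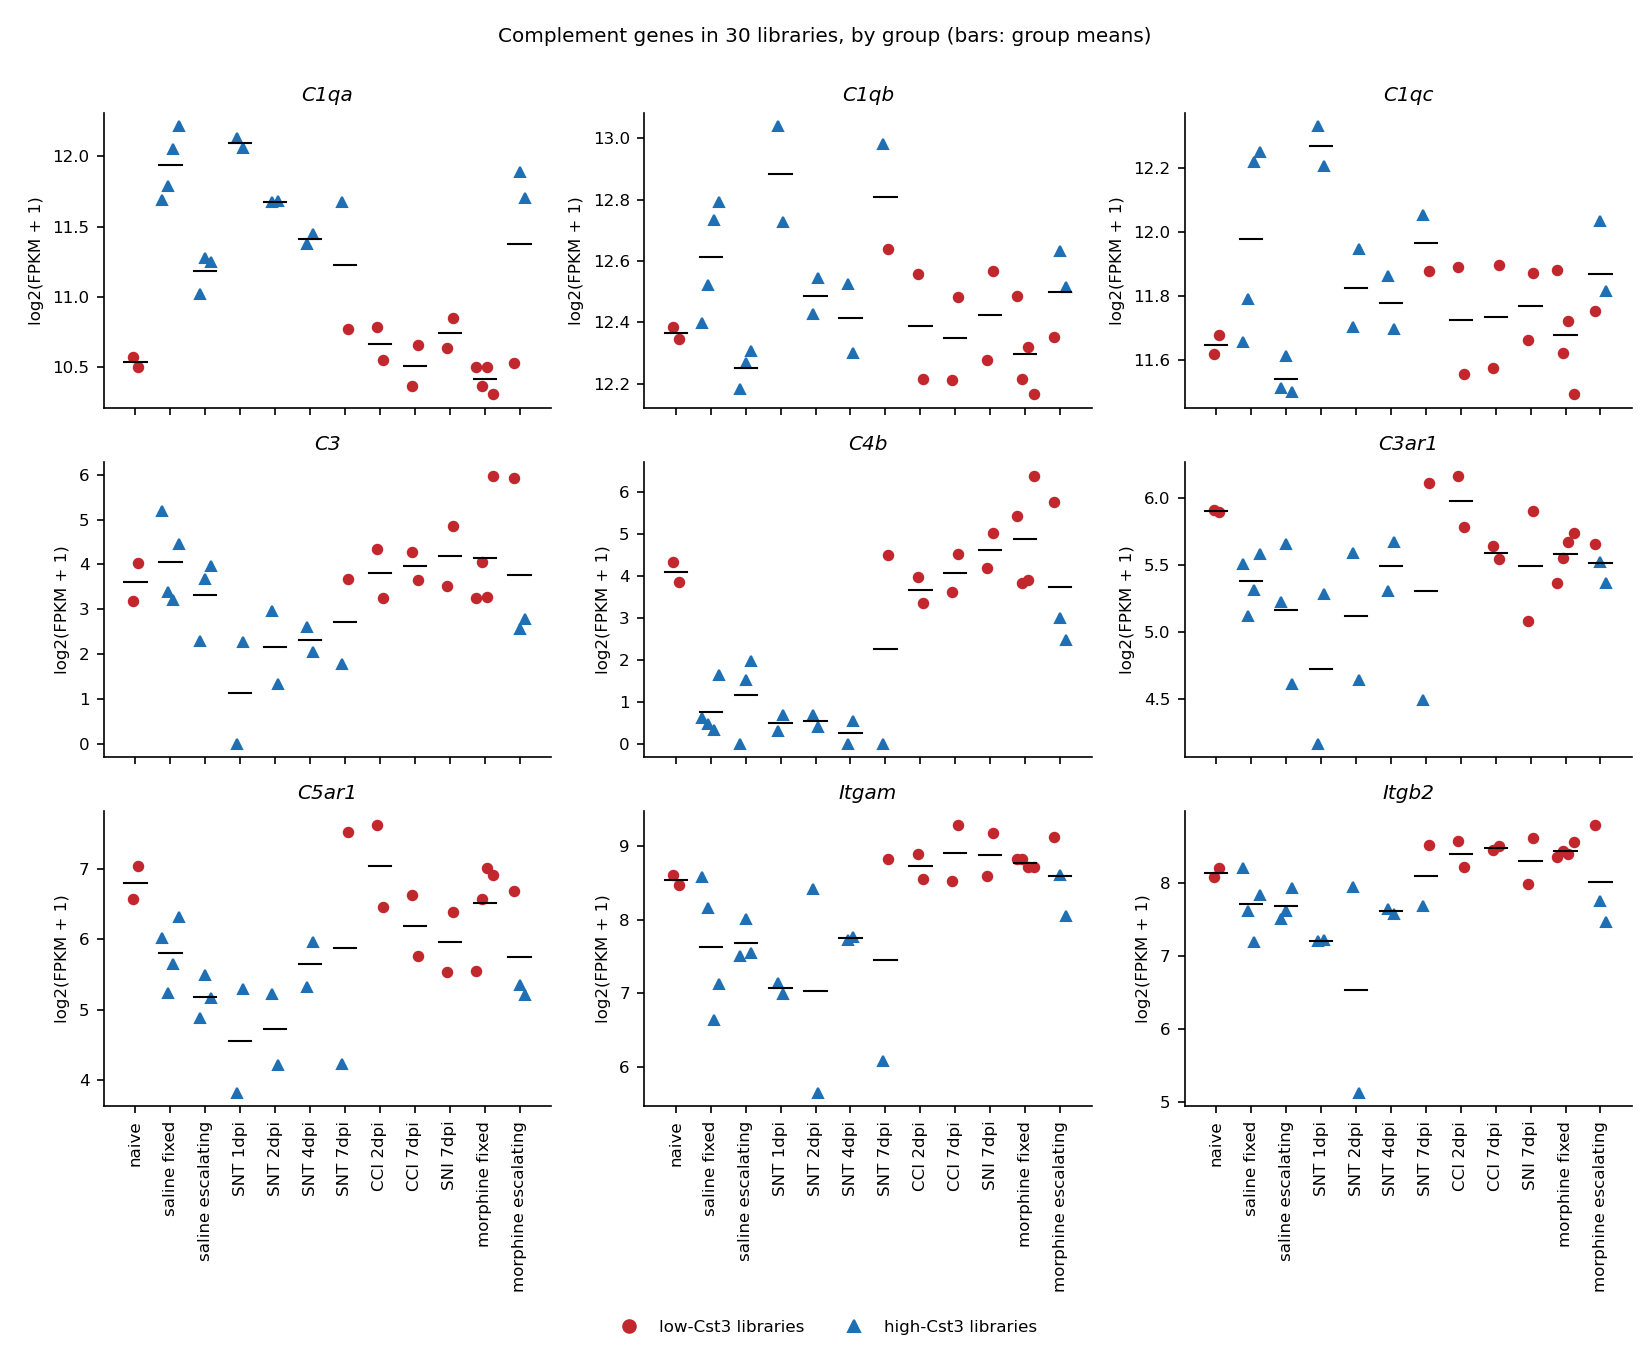
Levels of the 9 complement genes as log2(FPKM + 1) in each of the 30 libraries by group, with black bars at the group means of these log2 values; red circles are the 14 low-Cst3 and blue triangles the 16 high-Cst3 libraries, and the vertical axes differ between panels. C1qa is lower and C4b higher in the 14 libraries, with no overlap, and the other 7 genes overlap between the sets.

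The chains of CR3 were the most abundant of the receptor genes. Itgam (chr7:128062640-128118491) averaged 321 FPKM, rank 131, and Itgb2 (chr10:77530329-77565708), which also pairs with other leukocyte integrin chains, 263 FPKM, rank 166. Itgam exceeded Itgb2 in 14 of 14 low-Cst3 and 9 of 16 high-Cst3 libraries. Itgam measured 390 and 353 FPKM in naive, 380, 285, 98.8 and 138 FPKM in fixed saline and 180, 256 and 186 FPKM in escalating saline. It ran from 368 to 624.8 FPKM in the 6 CCI and SNI libraries and from 49.1 to 450 FPKM in the 8 transection libraries, where replicates of 2 dpi (342 and 49.1 FPKM) and 7 dpi (66.3 and 450 FPKM) were far apart. The low replicates of those days are libraries with few detected genes. Fixed morphine gave 450, 453, 420 and 419 FPKM, and escalating morphine 554, 389 and 263 FPKM. Of the 50-base stretches of the longest Itgam transcript, 72.4% also occur in the annotated gene Gm49368 (GENCODE M21), so its level depends on how such reads were counted, which is not given in the sources used here. Itgb2 ran from 34.0 FPKM in SNT 2 dpi replicate 2 to 447 FPKM in escalating-morphine replicate 1, with 255 to 395 FPKM over CCI and SNI and 145 to 297 FPKM over the 9 controls.

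The receptors of the small fragments were lower. C5ar1 (chr7:16246743-16259540), the receptor through which C5a attracts and activates phagocytes, averaged 70.0 FPKM and ranged from 13.1 to 198 FPKM. C3ar1 (chr6:122847140-122856157) averaged 44.3 FPKM and ranged from 16.9 to 70.9 FPKM. C5ar1 exceeded C3ar1 in 14 of 14 low-Cst3 and 8 of 16 high-Cst3 libraries. The lowest library for both was SNT 1 dpi replicate 1, and the highest for both was CCI 2 dpi replicate 1. C5ar1 was at 94.5 and 131 FPKM in naive and between 28.6 and 79.2 FPKM over the 7 saline libraries. C3ar1 was at 59.1 and 58.6 FPKM in naive and at 23.4 to 49.3 FPKM in saline. In both genes naive and saline libraries did not overlap, and these libraries also differ in Cst3 throughout. How many of all genes separate them in this way was not counted. In a moderated F-test over naive, fixed saline and escalating saline neither gene was called (C5ar1 adjusted p = 0.427, C3ar1 adjusted p = 0.597). SNT 7 dpi again held a wide pair, with C5ar1 at 17.8 and 183 FPKM and C3ar1 at 21.5 and 68.3 FPKM in replicates 1 and 2.

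Nerve injury was compared with the 9 controls, group by group, to ask whether complement transcripts differed after each injury and day. After transection the 3 C1q genes had positive fitted differences at 1 dpi and C3, C4b and the 4 receptor genes negative ones, but none passed the test. Of all genes 67.1% had negative differences on that day. A gene was called where the limma moderated test, two-sided, gave a Benjamini-Hochberg adjusted p under 0.05 over all 11759 genes, and differences are on the log2(FPKM + 1) scale with their SE. At 1 dpi 0 of 9 complement genes were called, against 0.0170% of all genes. An unadjusted p under 0.05 was met by 16.1% of all genes and by 1 of the 9 complement genes. That was C3, at -2.57 ± 0.65 (adjusted p = 0.129), with replicate 1 listed at 0. Replicate 2, at 3.84 FPKM, was all but level with the lowest control, 3.85 FPKM in escalating-saline replicate 7. Without replicate 2 the difference was -3.71 (adjusted p = 0.00629), which rests on replicate 1 alone, where C3 is listed at 0 and few genes were detected, in a fit that called 10.4% of all genes. In bulk RNA a lower level of a gene can come from fewer cells that express it or from less RNA per cell, and these cannot be told apart. Neutrophil markers had negative differences at 1 dpi in 12 of 12 genes tested (median -1.999) and monocyte markers in 10 of 10 (median -2.37). So did 9 of 10 microglial (median -0.20) and 8 of 9 border macrophage markers (median -0.50), while astrocyte markers were positive in 7 of 9 and oligodendrocyte markers in 8 of 10. At CCI 2 dpi, CCI 7 dpi and SNI neutrophil markers were negative in 12, 11 and 11 of 12, and C3 differed by 0.09, 0.25 and 0.49. The part of these cells in the C3 difference was not tested. At 2 dpi 0 of 9 were called, against 0% of all genes, and 2 had an unadjusted p under 0.05, against 7.33% of all genes. The lowest p was that of Itgb2, at -1.26 ± 0.44 (adjusted p = 0.670), a value that rests on replicate 2, the library with few detected genes. Without replicate 2 the difference was 0.15, and without replicate 1 it was -2.68 (adjusted p = 0.000906), in a fit that called 9.72% of all genes.

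On the later days after transection C3 again had the lowest p. At 4 dpi 0 of 9 genes were called, against 0% of all genes. Only C3 had an unadjusted p under 0.05, at -1.39 ± 0.65 (adjusted p = 1), against 2.34% of all genes. At 7 dpi 0 of 9 were called, against 0.204% of all genes, and none had an unadjusted p under 0.05, against 8.88% of all genes. The value of C3 there was -0.99 ± 0.65 (adjusted p = 0.683). The median difference of the 9 genes was -0.70, -0.81, -0.11 and 0.06 on days 1, 2, 4 and 7, beside medians of -0.25, -0.23, 0.03 and 0.03 over all genes. Within the high-Cst3 libraries, where the comparison is with the 7 saline libraries, C3 differed by -2.60, -1.59, -1.41 and -1.96 on the 4 days, with the last day resting on 1 library, and no complement gene was called. The low-Cst3 replicate of 7 dpi differed from naive by 0.05 in C3. Compared among themselves with a moderated F-test, the 4 days differed in 0 of 9 genes, against 0.00850% of all genes. At an unadjusted p under 0.05 there were 0 of 9, against 11.5% of all genes. Itgb2 had the lowest p (adjusted p = 0.455, and 0.00919 without SNT 2 dpi replicate 1, where 4.64% of all genes were called). All of these day-wise comparisons share the same controls.

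After CCI, in which ligatures compress the nerve, and SNI, in which a branch is left intact, fitted differences of C4b were positive and those of C1qa negative, but neither gene was called. At CCI 2 dpi 0 of 9 genes were called, against 0.00850% of all genes, with 1 at an unadjusted p under 0.05, C4b at 2.02 ± 0.95 (adjusted p = 0.458). At CCI 7 dpi 0 of 9 were called, against 0% of all genes, with 2 at an unadjusted p under 0.05, C4b at 2.43 ± 0.95 (adjusted p = 0.383) and C1qa at -0.87 ± 0.39 (adjusted p = 0.464). At SNI 7 dpi 0 of 9 were called, against 0% of all genes, with 1 at an unadjusted p under 0.05, C4b at 2.98 ± 0.95 (adjusted p = 0.999). The median over the 9 genes was 0.55, 0.25 and 0.15, beside 0.17, 0.17 and 0.01 over all genes. In these 3 comparisons 10.7%, 9.75% and 4.06% of all genes had an unadjusted p under 0.05. All 6 CCI and SNI libraries are low in Cst3 and 7 of the 9 controls are high. Against the 2 naive libraries, which are also low in Cst3, the differences of C4b were -0.43, -0.03 and 0.52 and those of C1qa 0.13, -0.03 and 0.21. Against all controls those of C1qa were -0.71, -0.87 and -0.63. All were smaller in size against naive. The C4b difference changed sign in both CCI groups, and that of C1qa at CCI 2 dpi and SNI. Differences of Itgam were also smaller there but still positive, at 0.18, 0.37 and 0.34, where against all controls they were 0.88, 1.06 and 1.03. None of these was called, and in each of the 3 groups 1 of 2 libraries lay inside the range of the 2 naive libraries. At 7 dpi the 3 injuries, compared among themselves by a moderated F-test, differed in 0 of 9 genes, against 0% of all genes. At an unadjusted p under 0.05 there were 0 of 9, against 3.88% of all genes, and Itgam had the lowest p (adjusted p = 1).

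**Figure D3:**
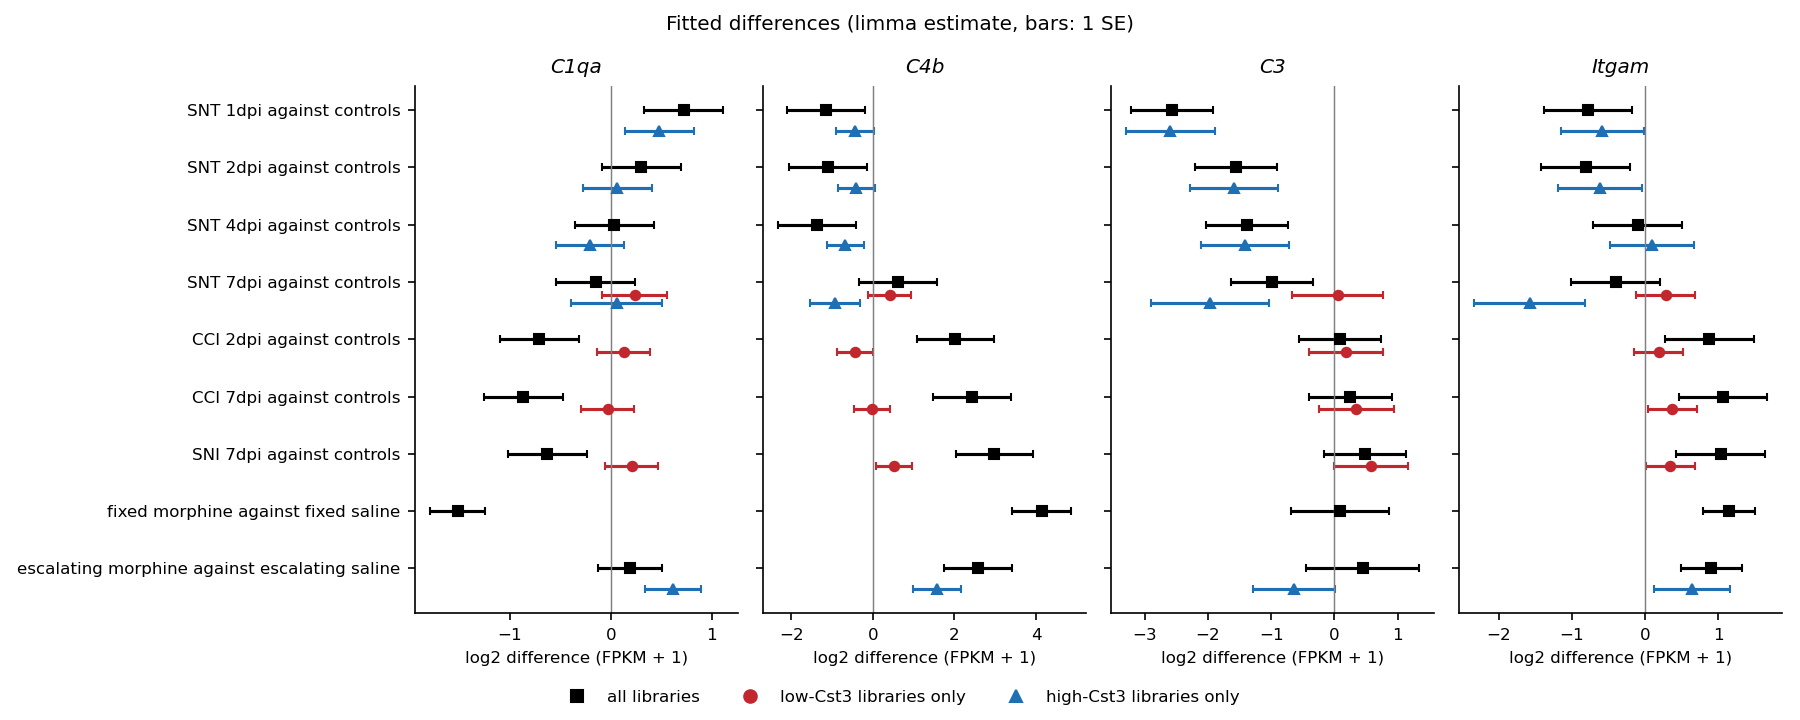
Fitted differences of C1qa, C4b, C3 and Itgam on the log2(FPKM + 1) scale for 9 comparisons, as limma estimates with bars of 1 SE; black squares use all libraries, red circles only the low-Cst3 and blue triangles only the high-Cst3 libraries. C4b lies at 2.02 to 2.98 for the CCI and SNI groups with all controls and at -0.43 to 0.52 within the low-Cst3 libraries, while C3 lies below 0 for SNT 1, 2 and 4 dpi with all libraries and within the high-Cst3 libraries.

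Morphine on the fixed regimen was compared with fixed saline, and here complement genes passed the test. C4b was higher under morphine, C1qa lower and Itgam higher, and 3 of 9 genes were called, against 18.0% of all genes. At an unadjusted p under 0.05 there were 4 of 9, against 34.7% of all genes. C4b averaged 38.2 ± 33.0 FPKM under morphine (SD, n = 4) against 0.816 ± 0.855 FPKM in saline (n = 4), a difference of 4.13 ± 0.73 (adjusted p = 0.00606), and it was higher in 4 of 4 morphine libraries than in any saline library. C1qa had a mean of 1370 ± 92.3 FPKM under morphine and 3958 ± 661 FPKM in saline, and the fitted difference was -1.52 ± 0.28 (adjusted p = 0.00606), again with no overlap. Under quantile normalization the C1qa difference was -0.80 (adjusted p = 0.0523), no longer a call. For Itgam the means were 435 ± 18.4 FPKM under morphine and 226 ± 131 FPKM in saline, and the fitted difference 1.14 ± 0.36 (adjusted p = 0.0411), a call that was lost when fixed-saline replicate 5 or 6 or any 1 of the 4 morphine libraries was left out (adjusted p = 0.0642 to 0.123). Its partner Itgb2 was at 327 to 380 FPKM against 145 to 297 FPKM, which did not pass (0.73 ± 0.27, adjusted p = 0.0757). C1qb and C1qc had smaller negative differences that did not pass, -0.32 (95% interval -0.78 to 0.15) and -0.30 (-0.76 to 0.17). A lower level of these 2 genes is thus neither shown nor excluded. That C1qa differed more than its neighbours was read from the ratios above, which divide by the Cst3 sets, and has no test of its own. C3 differed by 0.09 ± 0.77. The median over the 9 genes was 0.20, beside 0.22 over all genes.

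All 4 fixed-morphine libraries are low in Cst3 and all 4 fixed-saline libraries are high, so morphine and the set of libraries cannot be told apart in this comparison. The naive libraries, which had no morphine and are low in Cst3, held 19.1 and 13.5 FPKM of C4b and 1523 and 1449 FPKM of C1qa, where fixed morphine held 13.3 to 83.4 FPKM and 1264 to 1450 FPKM. Both naive values of C4b thus lay inside the fixed-morphine range. Of the naive C1qa values, 1 was level with the highest fixed-morphine value and the other was above all 4. Itgam in naive, 390 and 353 FPKM, was below all fixed-morphine values and 1 of the 2 lay inside the saline range. Markers of cell types were read beside all genes, of which 18.0% were called and 36.2% had negative differences in this comparison. Of 12 neutrophil markers tested, 12 had negative differences under fixed morphine (median -1.83) and 2 were called lower, S100a8 and Camp, with summed levels of 1845 to 18972 FPKM against 7400 to 28931 FPKM in saline. Of 10 microglial markers, Sall1 was called higher and Siglech lower, with summed levels of 7825 to 10228 FPKM against 10386 to 12788 FPKM. Astrocyte markers, of which 9 of 10 were tested, had positive differences in 8 with 0 called and summed to 55.5 to 148 FPKM against 25.9 to 179 FPKM. Pf4 was called lower as 1 of 9 border macrophage markers tested, Pecam1 as 1 of 3 endothelial and mural markers and Cd79a as 1 of 4 lymphocyte markers. Monocyte, neuron and oligodendrocyte markers had 0 called, with positive differences in 4 of 10, 8 of 9 and 9 of 10. Negative differences were found in 7 of 10 microglial, 7 of 9 border macrophage, 2 of 3 endothelial and mural and 4 of 4 lymphocyte markers. The part of these cells in the complement differences was not tested.

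On the escalating regimen all 9 genes had positive differences against escalating saline, where 37.4% of all genes had negative ones. The test called 0 of 9, against 0.0340% of all genes. At an unadjusted p under 0.05 there were 2 of 9, against 19.2% of all genes. C4b had the lowest p, at 2.58 ± 0.84 (adjusted p = 0.138), and Itgam followed at 0.90 ± 0.41 (adjusted p = 0.252). The median was 0.35, beside 0.16 over all genes. C4b was higher in 3 of 3 morphine libraries (53.6, 6.98 and 4.57 FPKM) than in any of the saline libraries (at most 2.93 FPKM). Within the high-Cst3 libraries, where escalating-morphine replicate 1 and all fixed-morphine libraries leave the fit, the remaining 2 against 3 libraries gave 1.57 ± 0.59 for C4b (adjusted p = 0.495) and 0.61 ± 0.28 for C1qa (adjusted p = 0.539). The morphine difference was then compared between regimens, and 0 of 9 genes were called, against 0.00850% of all genes. An unadjusted p under 0.05 was met by 11.7% of all genes and by 1 of the 9. This was C1qa, for which the fixed-regimen difference minus the escalating one was -1.71 ± 0.42 (adjusted p = 0.221). Without escalating-morphine replicate 1 it was -2.13 and called (adjusted p = 0.00225), with 3.73% of all genes, and in that fit the fixed-morphine libraries alone are low in Cst3.

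The kinds of control were compared to ask whether naive and saline mice differed in the absence of injury and morphine. In a moderated F-test over naive, fixed saline and escalating saline, 0 of 9 genes were called, against 0.102% of all genes. An unadjusted p under 0.05 was met by 13.5% of all genes and by 2 of the 9, C1qa (adjusted p = 0.0824) and C4b (adjusted p = 0.153). With the 3 transection libraries of few detected genes left out of the shared fit, both were called, as were 5.86% of all genes. C1qa was lower and C4b higher in the 2 naive than in all 7 saline libraries, and naive and saline libraries differ in Cst3 throughout. Among the saline libraries alone, all high in Cst3, C1qa was lower on the escalating than on the fixed regimen by -0.75 ± 0.24 (adjusted p = 0.592). Over all 12 groups 5 of 9 genes had an unadjusted p under 0.05 in the F-test, against 25.8% of all genes. After adjustment 2 of 9 were called, against 7.72% of all genes. They were C4b (adjusted p = 0.00291) and C1qa (adjusted p = 0.00472, and 0.0884 under quantile normalization). Without SNT 2 dpi replicate 1, or without SNT 7 dpi replicate 2, 4 of the 9 were called, in fits that called 22.3% and 28.4% of all genes. Among the low-Cst3 libraries alone 0 were called (C1qa and C4b both adjusted p = 0.898), and among the high-Cst3 libraries alone 0 (C1qa adjusted p = 0.394, C4b adjusted p = 0.284).

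Many other genes of the complement system did not pass the filter on low values. Of the rest of the classical pathway 2 of 7 genes could be tested, of the lectin pathway 2 of 7, of the alternative pathway 2 of 3 and of the terminal pathway, which forms the membrane attack complex, 1 of 7. Of the soluble regulators listed 2 of 5 were tested, of membrane regulators 4 of 10, of other complement receptors 4 of 7 and of other leukocyte integrins 5 of 6. The highest by mean FPKM among the genes listed, list by list, were C4a (0.928), Fcnb (23.0), which encodes a ficolin of neutrophils and other myeloid cells, Cfp (14), which encodes properdin, the stabiliser of the alternative pathway, C8g (0.706), Clu (9.35), which encodes clusterin, an inhibitor of the terminal pathway, Cr1l (37.0), the membrane regulator Crry, C1qbp (47.1) and Itgb1 (76.1). In the comparisons against controls or saline the genes listed gave calls only under fixed morphine, 4 genes, all higher and each 1 of its list. These are 4 of the 22 tested, a share of 18.2% that is close to the 18.0% of all genes called in that comparison. C4a differed by 1.61 ± 0.40 (adjusted p = 0.0173) and Masp1, a serine protease of the lectin pathway, by 0.70 ± 0.21 (adjusted p = 0.0378), with highest levels of 6.29 and 1.64 FPKM. Lrp1, an endocytic receptor that has C1q among its ligands, rose from 23.9 ± 9.84 to 53.2 ± 11.5 FPKM (SD, n = 4 each, adjusted p = 0.0145), and Itgb1, the integrin beta-1 chain, from 55.1 ± 22.4 to 103 ± 18.9 FPKM (adjusted p = 0.0363). The naive libraries held Lrp1 at 25.7 and 47.7 FPKM. By the F-test over all 12 groups C4a and Lrp1 were called.

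**Figure D4:**
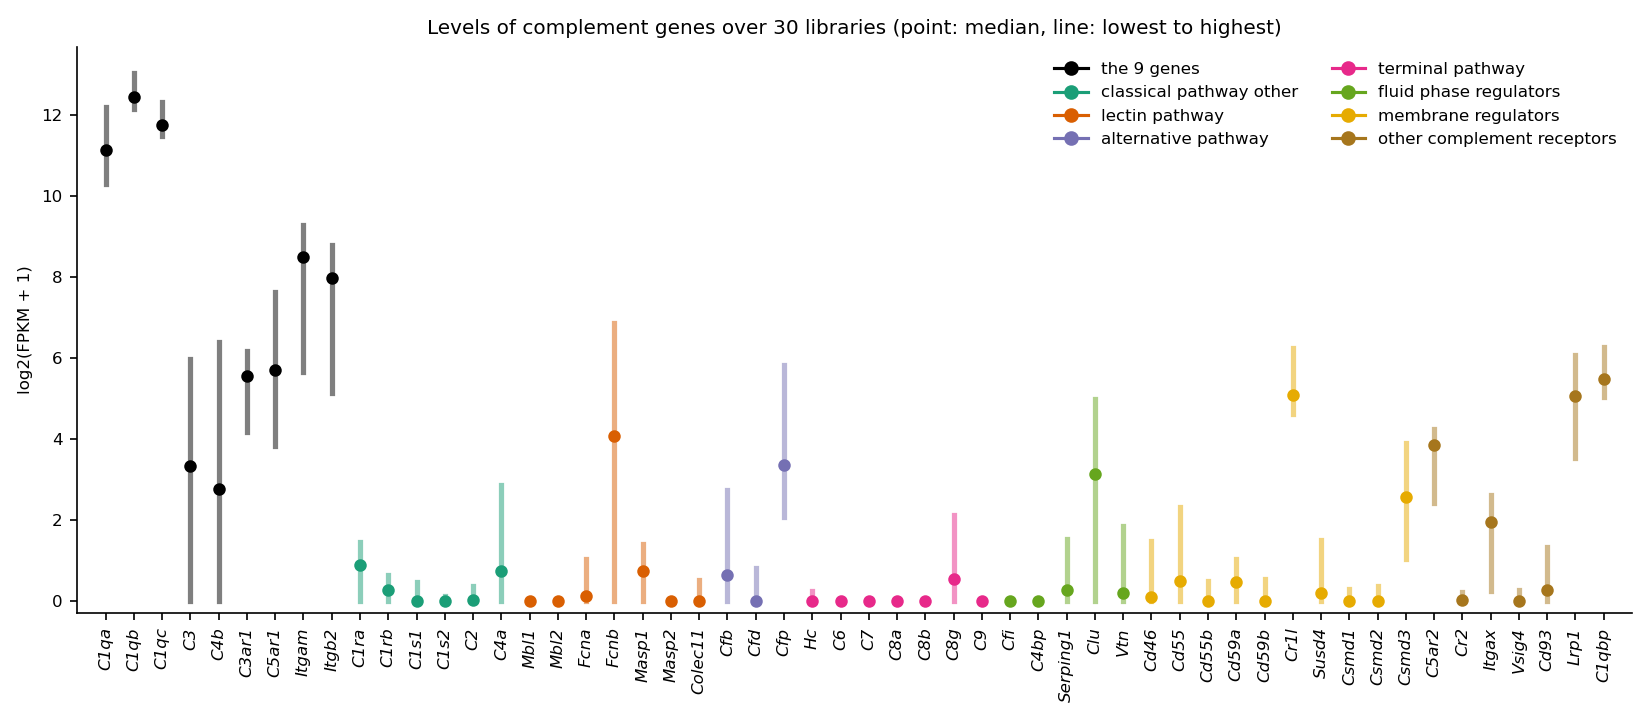
Levels of the 9 complement genes and of the other complement genes listed as log2(FPKM + 1), with points at the median and lines from the lowest to the highest of the 30 libraries, coloured by list. C1qa, C1qb and C1qc stand highest, Itgam and Itgb2 follow, and most genes of the lectin and terminal pathways lie at or near 0.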

How the data were processed

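RNA-seq libraries of CD11b-selected lumbar cord cells gave 30 columns of FPKM values, as deposited by the authors. Per the submitters' processing notes the build was mm10, the tools were featureCounts 1.4.6, Cufflinks 2.2.1 and HISAT2 2.0.5.1, and DESeq2 is named without a version; which of them made the FPKM values, the annotation and any filter are not given in the sources used here. Column sums over genes with a unique symbol ran from 298889 to 491729, and no further scaling was applied. The 826 rows of 281 repeated symbols were left out. Genes with at least 1 FPKM in at least 2 of 30 libraries were tested (11759, all 9 complement genes among them), on log2(FPKM + 1), with limma 3.58.1 in R 4.3.3 and an intensity trend; p-values were two-sided and adjusted by Benjamini-Hochberg over all genes tested, with a threshold of 0.05. The injury fit held the 14 injury libraries and the 9 controls as 1 group, the morphine fit the 7 morphine and 7 saline libraries, and the fit of all 12 groups all 30. The procedure was tested on simulated data. A change of log2 1 was recovered in 40 of 100 changed genes for fixed morphine and in 9 of 100 for CCI 7 dpi. A change of log2 3 was recovered in 97 of 100 for both, so an uncalled gene may still differ.

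The complement genes, the other gene lists and the tests were chosen with earlier results of these data known. All 9 genes are described in every library; a difference with SE and adjusted p is given for each gene called and for the lowest p of each comparison. Some items are not reported here and were left out of the gene lists. Other complement genes are named where called or highest in their list, and for C1qa and C3 the 5 tested genes of highest Pearson correlation. The split by Cst3 (boundary 30000 FPKM) was added after seeing the data. Alternatives were a pseudocount of 0.1, no filter, a filter of 5 FPKM, quantile normalization, median-ratio scaling, naive controls alone, a replicate block, leaving out the 3 libraries with few genes and leaving out each library. Same-numbered libraries did not deviate together: over 28 pairs from 2-library groups the correlation of deviations was -0.429 to 0.224, with 4 over 0.1, and between fixed saline and fixed morphine -0.274 and -0.0493, so the numbers were not taken as pairs. Promoters and positions came from RefSeq (GRCm38.p6) and shared 50-base stretches from GENCODE M21 transcripts. Tables were made with pandas 2.3.3 and figures with matplotlib 3.10.9 under Python 3.11.15.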

Additional observations from a re-analysis of the deposited data

Results flagged for a closer look

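Of 27 sets of values (9 genes in the 4 fixed-saline, the 4 fixed-morphine and all 9 control libraries), 2 held a library far from the rest by Dixon's ratio, a check that chance meets in about 1 in 20 groups. C4b was at 2.09 FPKM in fixed-saline replicate 6 and at 0.260 to 0.533 FPKM in the other 3. C3 was at 62.4 FPKM in fixed-morphine replicate 4 and at 8.51 to 15.7 FPKM in the other 3. That library also held the highest C4b of all 30, 83.4 FPKM, and neutrophil markers that summed to 18972 FPKM, against 1845 to 3753 FPKM in the other 3 fixed-morphine libraries; their part in the C3 value was not tested.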

How the results depend on the processing

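Of the 9 complement genes, 0 were called against controls at SNT 4 and 7 dpi, CCI 2 and 7 dpi and SNI, among the injuries at 7 dpi and for escalating morphine, under all alternatives run. Leaving out single libraries gave 0 to 1 called genes at SNT 1 dpi, at SNT 2 dpi (Itgb2 at -2.68 without replicate 1), among the SNT days and between the regimens, 2 to 4 for fixed morphine and 2 to 4 over all 12 groups. For kinds of control, 2 were called with the 3 libraries of few genes left out. Over all 12 groups, 1 was called with quantile normalization and 0 and 0 within the low- and the high-Cst3 libraries. A replicate block for fixed morphine, with 2 shared numbers that do not pair the libraries, called 0 of 9 and 0 of all genes (C1qa -1.25, C4b 4.27, Itgam 0.20). No block could be made for escalating morphine, whose libraries share no number with their saline group. Sign was followed for the genes called or of lowest p in each comparison. Itgb2 reversed at SNT 2 dpi (0.15 without replicate 2, or without the 3 libraries of few genes). C3 reversed at SNT 7 dpi (0.054 within the low-Cst3 libraries). C4b reversed at CCI 2 dpi (-0.43) and CCI 7 dpi (-0.026). It did so with naive controls alone, with the replicate block, which leaves only naive controls, or within the low-Cst3 libraries. C1qa, outside that check, also changed sign at CCI 2 dpi and SNI with naive controls alone. The causes were not tested. For fixed morphine Itgam was lost with no filter (adjusted p = 0.0797) and with median-ratio scaling (0.91, adjusted p = 0.0702). Quantile normalization shifted the median fixed-morphine difference of all genes by -0.23, and median-ratio scaling by -0.17.

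Counts of called genes over the whole table moved more. Beside the 2119 genes of fixed morphine, leaving out single libraries gave 757 to 2163. Leaving out single libraries gave 2 to 1221 at SNT 1 dpi (main 2), 0 to 1143 at 2 dpi (main 0), 8 to 1006 at 7 dpi (main 24), 0 to 100 at CCI 7 dpi (main 0), 0 to 2 at SNI (main 0), 0 to 546 among SNT days (main 1), 0 to 792 among injuries at 7 dpi (main 0), 0 to 465 for escalating morphine (main 4), 0 to 439 between regimens (main 1), 0 to 51 for kinds of control (main 12) and 489 to 3341 over all groups (main 908). Over the other alternatives the counts were 0 to 4, 0 to 15, 0 to 11 and 0 to 243 at SNT 1, 2, 4 and 7 dpi, 0 to 7 and 0 to 3 at CCI 2 and 7 dpi, 0 to 12 at SNI, 0 to 49 among SNT days, 0 to 33 among injuries, 1606 to 1988 for fixed morphine apart from the block, 0 to 8 for escalating morphine, 0 to 2 between regimens, 1 to 689 for kinds of control and 2 to 1752 over all groups. The 243 compares 1 library with 7, and the 689 and 1752 leave out the 3 libraries of few genes. At unknown depth, values listed at 0 give no limit.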
